A study of Mus musculus with 21 samples.

Results

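Pou5f1, Sox2, Sall4, Utf1, Otx2, Fgf5, Pou3f1 and Zic2 are genes of core and formative pluripotency, and their mRNA was measured by total RNA-seq in 7 groups of mouse embryonic stem (ES) cells. The 8 genes were taken by symbol from a table of 22512 genes, and each had 1 row. All 21 libraries, 3 a group, came from derivatives of 1 parental ES line of 129S6/SvEvTac background. Every group, controls included, therefore has FLAG-tagged Cas9 with blasticidin resistance and a reporter whose GFP mRNA holds TRIM71 binding sites (GFP_5xT71BS). The culture medium held serum and LIF, and dishes were coated with gelatin. In Experiment 1, W is the parental line, for which no later plasmid is named, Trim71KO is edited in Trim71, the gene of an RNA-binding repressor of mRNAs, and Ago2KO is edited in Ago2, which encodes the main Argonaute protein that microRNAs guide to mRNAs. In Experiment 2, parental cells received a pCIP plasmid for the T6B peptide (FH-T6B) fused to mCherry, either the form that binds Argonaute and competes with TNRC6 proteins (T6B_WT) or a mutant form (T6B_MUT), and the edited lines received an empty plasmid (Trim71KO_empty and Ago2KO_empty). Experiment 2 has no unedited group with an empty plasmid, so plasmid and genotype differ together when an edited group is compared with T6B_MUT. The labels call the replicates biological and do not say how many clones stand behind an edited line.

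ES cells in serum and LIF are in or near the naive state of pluripotency, that of the preimplantation epiblast. Core factors such as OCT4 (encoded by Pou5f1) and SOX2 bind enhancers together and are kept on through naive, formative and primed pluripotency, whereas OTX2, OCT6 (encoded by Pou3f1), ZIC2 and FGF5 rise when cells leave the naive state for the formative state of the early postimplantation epiblast. Naive factors such as NANOG, KLF4, ESRRB, TFCP2L1 and TBX3 fall in that transition, and microRNAs of the miR-290 family are abundant in ES cells.

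Because Argonaute and TNRC6 act through sites that pair with a microRNA seed (bases 2 to 8), the annotated 3′ UTRs of the 8 genes were searched on the mRNA strand for the 7-base match to 8 microRNA families of ES cells. The mature microRNAs of the 4 families discussed here are given from RefSeq (GRCm38.p6) with the seed in capitals.
mmu-miR-294-3p: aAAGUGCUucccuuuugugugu
mmu-miR-16-5p: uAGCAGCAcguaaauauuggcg
mmu-miR-200b-3p: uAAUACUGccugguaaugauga
mmu-let-7a-5p: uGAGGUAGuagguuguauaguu
The match to the miR-290 and miR-302 seed, AGCACTT, was in none of the 8 longest annotated 3′ UTRs (GENCODE M21, GRCm38), which were 122 to 1697 bases long, and it was in 16.9% of the 14289 tested genes with an annotated 3′ UTR, whose median length was 1133 bases. The match to the miR-17 seed, GCACTTT, overlaps it by most of its letters, was also in none of the 8 and was in 13.9% of the background. Only Sall4 and Sox2 held any match among the 8 families. The 4 sites are printed 5′ to 3′ on the mRNA strand with the match in capitals, and they are matches of letters, not shown to be bound.
Sall4, miR-15 and miR-16, chr2:168749829-168749857, minus strand: gagagttgctaTGCTGCTttccaaaaaaa
Sall4, miR-15 and miR-16, chr2:168749276-168749304, minus strand: acaatttctccTGCTGCTtccttaaatat
Sall4, let-7, chr2:168748930-168748958, minus strand: ctttaatttatCTACCTCaattatcttta
Sox2, miR-200b and miR-429, chr3:34651819-34651847, plus strand: caacttttgtaCAGTATTtatcgagataa
TGCTGCT was in 23.9% of the same background, CTACCTC in 10.4% and CAGTATT in 15.0%. The other families searched (miR-92 GTGCAAT, miR-130 and miR-301 TTGCACT, miR-26 TACTTGA) had no match in the 8 genes and were found in 7.19%, 11.2% and 10.9% of the background.

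Library totals ran from 29561125 to 57872324 counts. The 7 ES cell markers were each above 1 CPM (the counts-per-million scale, on composition-scaled library totals) on average in every group, and their sum was 3230 to 4490 CPM per library. Trim71 mRNA was lowered but not lost in the edited libraries. Its log2 fold change was −0.50 ± 0.05 (SE) in Trim71KO against W and −0.29 ± 0.08 in Trim71KO_empty against T6B_MUT, and the editing is taken from the labels. Trim71 also fell in Ago2KO against W (−0.25 ± 0.05). Ago2 stood at 39.8 to 43.6 CPM in Ago2KO against 134 to 153 CPM in W. In the libraries labelled Ago2KO_empty it was 87.4, 166.6 and 45.6 CPM, against 112 to 143 CPM in T6B_MUT, so the Ago2 level does not set this group apart (log2 fold change −0.30 ± 0.38, adjusted p = 0.601). Calls of the 8 genes in this group, and the gene lists below, are given with and without its replicate 2, in which Ago2 was highest. Bulk RNA cannot tell a change in the share of cells that express a gene from a change in RNA per cell.

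The 8 genes did not move as a block. Against the control of each experiment, the calls kept under every alternative and without each library in turn were higher Zic2 in both Ago2-edited groups and with T6B_WT, lower Zic2 in Trim71KO_empty, lower Pou3f1 and Sall4 in both Trim71-edited groups, lower Otx2 in Trim71KO and Ago2KO, lower Utf1 in Trim71KO_empty and lower Pou5f1 in Ago2KO_empty. Pou3f1 was also called lower in both Ago2-edited groups and with T6B_WT, calls that were lost without single libraries. Pou5f1 and Sox2 differed by 0.37 or less on the log2 scale in every comparison. In Trim71KO against W, 0 of the 8 genes were called higher (adjusted p under 0.05, edgeR), where 16.9% of all genes tested were, and 3 were called lower, where 15.6% were. In Ago2KO against W, 1 was called higher (10.2% of all genes) and 2 lower (7.78%). Without composition scaling, the genes called over the whole table in Ago2KO split into 2556 higher and 1189 lower, in place of 2161 and 1650. The 3 calls among the 8 genes were kept there in the same direction, and Fgf5 was called lower in addition. In Trim71KO against Ago2KO, 0 were higher (17.1%) and 2 lower (17.1%). With 8 genes, these shares move by a large step for each gene called.

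In Experiment 2 only 7 of the 8 genes passed the filter on low counts, since Fgf5 did not. With T6B_WT against T6B_MUT, 2 were called higher (9.29% of all genes) and 2 lower (6.69%). Of these 4 calls only that of Zic2 was kept in every alternative and on leaving out each library, and the count fell to 2 under another scaling and to 1 or 2 without any 1 of the 6 libraries. It rose to 6 when only the 2 groups compared were fitted, where Utf1 (−0.19, adjusted p = 0.0156) and Otx2 (0.21, adjusted p = 0.0141) were called too. In Trim71KO_empty against T6B_MUT, 1 was higher (14.4%) and 4 lower (13.4%). In Ago2KO_empty against T6B_MUT, 3 were higher (16.4%) and 3 lower (12.4%), and the 6 calls became 4 without replicate 2 of Ago2KO_empty, 3 without its replicate 3 or T6B_MUT replicate 2, and 2 without its replicate 1 or T6B_MUT replicate 1. In Trim71KO_empty against Ago2KO_empty, 1 was higher (14.7%) and 3 lower (16.9%), which held without replicate 2 of Ago2KO_empty. Comparisons within an experiment share their control libraries, so their values are set side by side and not counted together.

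**Figure D1:**
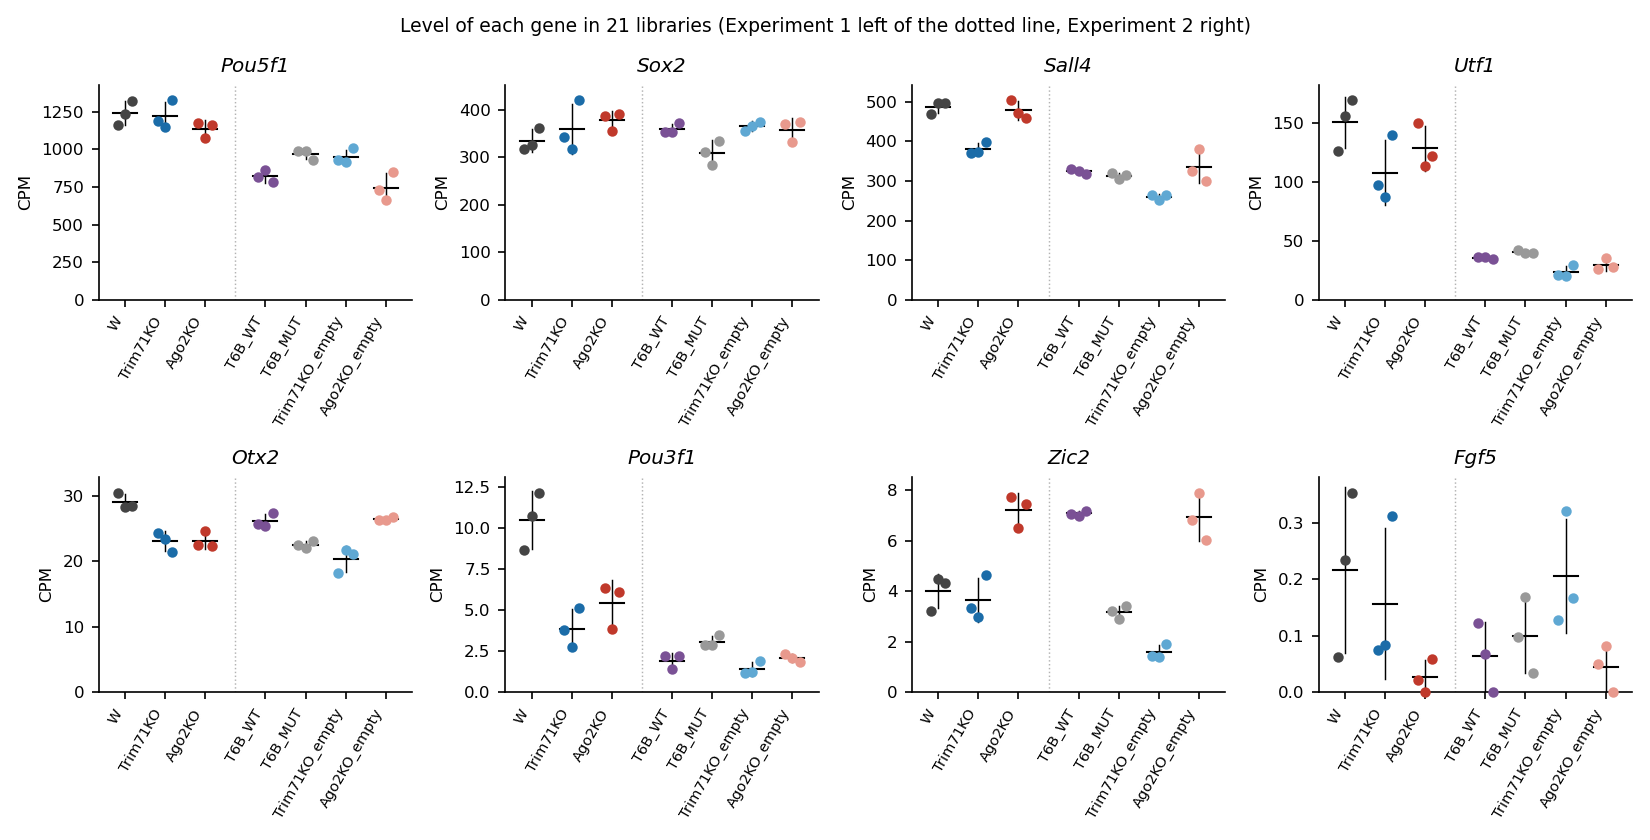
CPM (linear axis from 0) of the 8 genes in each of the 21 libraries, as points, with the mean as a horizontal bar and the SD over 3 libraries as a vertical bar that is cut at 0. Pou3f1 is below its control in each edited or T6B_WT group, Zic2 stands near 7 CPM in Ago2KO, T6B_WT and Ago2KO_empty, and the levels of the 2 experiments were scaled separately.

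On the length-scaled RPKM values of the authors, the core genes were far above the formative ones. Mean RPKM in W (± SD, n = 3) was 559 ± 38.2 for Pou5f1, 165 ± 12.2 for Sox2, 124.5 ± 18.4 for Utf1 and 89.3 ± 3.27 for Sall4, compared with 6.985 ± 0.261 for Otx2, 2.77 ± 0.476 for Pou3f1, 1.41 ± 0.247 for Zic2 and 0.0878 ± 0.0596 for Fgf5. In T6B_MUT 2 neighbouring pairs stood in the other order, with Utf1 at 32.6 ± 1.14 below Sall4 at 55.8 ± 1.5 and Pou3f1 at 0.785 ± 0.0921 below Zic2 at 1.09 ± 0.0897. No neighbours in either order overlapped within 1 SD. Pou5f1 ranked 86th by mean RPKM among 22512 genes in W and Fgf5 ranked 20489th.

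Pou5f1 (ENSMUSG00000024406, chr17:35506018-35510772, plus strand), the POU-domain factor at the centre of the network, was measured at 1160, 1237 and 1322 CPM in W, 1185, 1146 and 1324 CPM in Trim71KO and 1175, 1072 and 1160 CPM in Ago2KO. These 3 groups overlapped. The log2 fold change was −0.02 ± 0.06 (95% interval −0.15 to 0.10) in Trim71KO and −0.13 ± 0.06 (−0.26 to 0.00, adjusted p = 0.177) in Ago2KO. In Experiment 2, Pou5f1 stood at 989, 986 and 927 CPM in T6B_MUT, 928, 916 and 1005 CPM in Trim71KO_empty, 816, 861 and 780 CPM in T6B_WT and 726.5, 663 and 848 CPM in Ago2KO_empty. Both T6B_WT and Ago2KO_empty lay wholly below T6B_MUT and overlapped each other, and Trim71KO_empty overlapped T6B_MUT. Pou5f1 fell in Ago2KO_empty, with a log2 fold change of −0.37 ± 0.08 (adjusted p = 0.00203), and of −0.31 (adjusted p = 0.00631) without replicate 2. The fall with T6B_WT, −0.24 ± 0.08, passed only just (adjusted p = 0.0483) and was not called after leaving out any 1 of the 6 libraries, under another scaling, with a stricter filter or by DESeq2. In Trim71KO_empty it was −0.03 ± 0.08. Pou5f1 was higher in Trim71KO_empty than in Ago2KO_empty, by 0.35 ± 0.08 on the log2 scale (adjusted p = 0.00259, or 0.28 with adjusted p = 0.0106 without replicate 2). The gene shares 317 exon bases with the antisense gene Gm19553, which was not analysed here.

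Sox2 (ENSMUSG00000074637, chr3:34650405-34652461, plus strand, 1 exon), the HMG-box partner of OCT4, was measured at 317, 326 and 362 CPM in W, 343, 318 and 420 CPM in Trim71KO and 388, 355 and 391.5 CPM in Ago2KO. All 3 groups overlapped, and neither edited group passed the test (log2 fold change 0.10 ± 0.09 and 0.17 ± 0.09). In Experiment 2 it was 311, 285 and 335 CPM in T6B_MUT, 353, 354 and 371.5 CPM in T6B_WT, 355, 366 and 375.5 CPM in Trim71KO_empty and 370, 332 and 374 CPM in Ago2KO_empty. T6B_WT and Trim71KO_empty lay wholly above T6B_MUT and Ago2KO_empty overlapped it. The increases were called but small. They were 0.24 ± 0.07 on the log2 scale in Trim71KO_empty (adjusted p = 0.0167), 0.21 ± 0.07 with T6B_WT (adjusted p = 0.0470) and 0.21 ± 0.07 in Ago2KO_empty (adjusted p = 0.0325, or 0.0170 without its replicate 2). Each of the 3 calls was lost without T6B_MUT replicate 1 or replicate 2, the library in which Sox2 was lowest. The call with T6B_WT was also lost without any T6B_WT library, and that in Trim71KO_empty without its replicate 2 or 3. That in Ago2KO_empty was also lost without its replicate 1 or 3, or when only the 2 groups were fitted. Another scaling, unscaled library totals or no filter on low counts removed the calls with T6B_WT and in Ago2KO_empty. Sox2 lies in an intron of the noncoding gene Sox2ot on the same strand, with no shared exon bases. Sox2ot itself rose in Ago2KO (log2 fold change 0.77 ± 0.19), Ago2KO_empty (1.18 ± 0.14, or 1.16 without replicate 2), T6B_WT (0.57 ± 0.14) and Trim71KO_empty (0.80 ± 0.14), and the part of its reads in the Sox2 count was not tested. Its call in Ago2KO was lost without W replicate 2 or 3, and that in T6B_WT without T6B_WT replicate 1 or T6B_MUT replicate 1 or 3.

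Sall4 (ENSMUSG00000027547, chr2:168748332-168767943, minus strand), a zinc-finger factor that works with OCT4 and with the NuRD complex, was lower in both Trim71-edited groups and in no other. It was measured at 469, 496.5 and 498 CPM in W, 371, 374 and 397 CPM in Trim71KO and 504, 473 and 458 CPM in Ago2KO, so Trim71KO lay wholly below both other groups. Its log2 fold change against W was −0.36 ± 0.05 in Trim71KO (adjusted p = 5.09e-05) and −0.03 ± 0.05 in Ago2KO, and the direct comparison of Trim71KO with Ago2KO gave −0.33 ± 0.05 (adjusted p = 8.89e-05). In Experiment 2 it was 319, 305 and 315 CPM in T6B_MUT, 330.3, 326 and 317.5 CPM in T6B_WT, 264, 252 and 265.5 CPM in Trim71KO_empty and 325, 380.2 and 301 CPM in Ago2KO_empty. Trim71KO_empty was again below every other library of its experiment. The log2 fold change against T6B_MUT was −0.26 ± 0.07 in Trim71KO_empty (adjusted p = 0.0113), 0.05 ± 0.07 with T6B_WT and 0.10 ± 0.07 in Ago2KO_empty, where the highest library is the replicate 2 named above and the value without it was −0.02. Against Ago2KO_empty, Trim71KO_empty was lower by −0.36 ± 0.07 (adjusted p = 0.000905), or −0.25 (adjusted p = 0.00552) without that library. The fall in the Trim71-edited groups was kept under every alternative and without each library in turn. Sall4 carries 3 of the 4 seed matches printed above and was not called in either Ago2-edited group or with T6B_WT. The gene shares 526 exon bases with Gm14261 on the opposite strand.

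Utf1 (ENSMUSG00000047751, chr7:139943789-139945112, plus strand), which encodes a chromatin-associated protein of pluripotent cells, fell in both edited groups of Experiment 2. It was measured at 42.1, 39.5 and 40.1 CPM in T6B_MUT, 36.0, 36.5 and 34.6 CPM in T6B_WT, 20.8, 20.3 and 29.2 CPM in Trim71KO_empty and 25.9, 35.3 and 28.0 CPM in Ago2KO_empty. All 3 other groups lay wholly below T6B_MUT. The log2 fold change was −0.79 ± 0.13 in Trim71KO_empty (adjusted p = 0.000543), −0.45 ± 0.13 in Ago2KO_empty (adjusted p = 0.0201, or −0.61 with adjusted p = 0.00127 without replicate 2) and −0.18 ± 0.13 with T6B_WT (adjusted p = 0.396, called when only those 2 groups were fitted). The call in Ago2KO_empty was lost without its replicate 1 or T6B_MUT replicate 1. In Experiment 1 the replicates were more spread, at 127, 156 and 169 CPM in W, 97.2, 87.2 and 139.6 CPM in Trim71KO and 149.7, 113 and 122 CPM in Ago2KO, and the groups overlapped. Neither edited group passed the test there, at −0.48 ± 0.21 in Trim71KO (95% interval −0.98 to 0.02, adjusted p = 0.136) and −0.23 ± 0.21 in Ago2KO. Without replicate 3 of Trim71KO, its highest library, the value was −0.71 (adjusted p = 0.0137). Utf1 overlaps no annotated gene, and its mean level was 151 CPM in W and 40.5 CPM in T6B_MUT, a gap between experiments that was not tested.

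Otx2 (ENSMUSG00000021848, chr14:48657677-48673819, minus strand), the homeodomain factor that drives the step from naive to formative pluripotency, was measured at 30.5, 28.3 and 28.5 CPM in W, 24.4, 23.4 and 21.4 CPM in Trim71KO and 22.5, 24.7 and 22.3 CPM in Ago2KO. Both edited groups lay wholly below W and overlapped each other. Otx2 fell by −0.34 ± 0.07 on the log2 scale in Trim71KO (adjusted p = 0.00136) and by −0.33 ± 0.07 in Ago2KO (adjusted p = 0.00303), calls that every alternative and every left-out library kept. In Experiment 2 it was 22.5, 22.0 and 23.1 CPM in T6B_MUT, 25.8, 25.5 and 27.4 CPM in T6B_WT, 18.2, 21.8 and 21.1 CPM in Trim71KO_empty and 26.3, 26.3 and 26.7 CPM in Ago2KO_empty. Here T6B_WT and Ago2KO_empty lay wholly above T6B_MUT and Trim71KO_empty wholly below it. The log2 fold change was 0.23 ± 0.07 in Ago2KO_empty (adjusted p = 0.0268, or 0.22 with adjusted p = 0.0621 without replicate 2), 0.22 ± 0.07 with T6B_WT (adjusted p = 0.0536, called when only those 2 groups were fitted or with a stricter filter) and −0.15 ± 0.08 in Trim71KO_empty (adjusted p = 0.156). The call in Ago2KO_empty was lost on leaving out any 1 of its 6 libraries. Otx2 was lower in Trim71KO_empty than in Ago2KO_empty by −0.38 ± 0.08 (adjusted p = 0.000783, or −0.37 with adjusted p = 0.00192 without replicate 2). Its annotated exons overlap those of Otx2os1 on the opposite strand (154 bases) and Gm49154 on the same strand (168 bases), neither of which was analysed here.

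Pou3f1 (ENSMUSG00000090125, chr4:124656807-124660655, plus strand, 1 exon) encodes OCT6, a POU-domain factor of the formative epiblast and of early neural cells. It had the largest called fall among the 8 genes in both Trim71 comparisons. The gene was measured at 8.655, 10.8 and 12.2 CPM in W (419, 506 and 586 counts), 3.765, 2.72 and 5.14 CPM in Trim71KO and 6.38, 3.86 and 6.095 CPM in Ago2KO. Both edited groups lay wholly below W and overlapped each other. Pou3f1 fell to 0.373-fold in Trim71KO (log2 fold change −1.42 ± 0.24, adjusted p = 0.0017) and to 0.526-fold in Ago2KO (−0.93 ± 0.23, adjusted p = 0.0233), the latter not called without W replicate 2 or replicate 3. Trim71KO and Ago2KO differed by −0.50 ± 0.25, which did not pass the test (95% interval −1.07 to 0.08) and passed without Trim71KO replicate 3 (−0.77, adjusted p = 0.0368) or Ago2KO replicate 2 (−0.66, adjusted p = 0.0475).

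In Experiment 2 Pou3f1 was lower throughout, at 2.87, 2.85 and 3.465 CPM in T6B_MUT, 2.19, 1.40 and 2.18 CPM in T6B_WT, 1.16, 1.23 and 1.93 CPM in Trim71KO_empty and 2.305, 2.11 and 1.84 CPM in Ago2KO_empty. All 3 other groups lay wholly below T6B_MUT and overlapped one another. The log2 fold change was −1.10 ± 0.20 in Trim71KO_empty (adjusted p = 0.000528), −0.68 ± 0.19 with T6B_WT (adjusted p = 0.0214) and −0.56 ± 0.19 in Ago2KO_empty (adjusted p = 0.0380, or −0.58 with adjusted p = 0.0544 without replicate 2). Only the fall in Trim71KO_empty was kept without each library in turn. That with T6B_WT was lost without T6B_WT replicate 2 or T6B_MUT replicate 3, and that in Ago2KO_empty without any 1 of the 6 libraries. Pou3f1 shares 330 exon bases with the antisense gene Gm2164, which was not analysed here.

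Zic2 (ENSMUSG00000061524, chr14:122475435-122479852, plus strand), a zinc-finger factor that takes up new enhancers as cells leave the naive state, rose when Ago2 was edited and with T6B_WT and did not rise in either Trim71-edited group. It was measured at 3.22, 4.47 and 4.35 CPM in W (156, 210 and 209 counts), 3.34, 2.97 and 4.66 CPM in Trim71KO and 7.75, 6.505 and 7.44 CPM in Ago2KO. Ago2KO lay wholly above both other groups, which overlapped. Zic2 rose 1.81-fold in Ago2KO (log2 fold change 0.86 ± 0.16, adjusted p = 0.00168), and its value in Trim71KO was −0.12 ± 0.17 (95% interval −0.48 to 0.24). The direct comparison of Trim71KO with Ago2KO gave −0.97 ± 0.16 (adjusted p = 0.00029).

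In Experiment 2 Zic2 was 3.22, 2.90 and 3.395 CPM in T6B_MUT, 7.075, 6.995 and 7.20 CPM in T6B_WT, 1.415, 1.37 and 1.93 CPM in Trim71KO_empty and 6.84, 7.91 and 6.05 CPM in Ago2KO_empty. No library of T6B_WT or Ago2KO_empty overlapped T6B_MUT, and Trim71KO_empty was below all others. The rise was 2.23-fold with T6B_WT (log2 fold change 1.16 ± 0.13, adjusted p = 6.64e-06) and 2.18-fold in Ago2KO_empty (1.12 ± 0.13, adjusted p = 6.14e-06, or 1.00 with adjusted p = 1.83e-05 without replicate 2). In Trim71KO_empty it fell to 0.494-fold (−1.02 ± 0.15, adjusted p = 6.18e-05), and Trim71KO_empty was below Ago2KO_empty by −2.14 ± 0.15 (adjusted p = 3.42e-09, or −2.03 with adjusted p = 2.66e-09 without replicate 2). Each of these Zic2 calls was kept under every alternative and without each library in turn.

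Zic5, which encodes a related zinc-finger factor, lies next to Zic2 on the opposite strand (chr14:122456795-122465677), with 9758 bases between the annotated starts of the genes. Its mean level was 7.09 ± 0.101 CPM (SD, n = 3) in W, 6.21 ± 0.538 in Trim71KO and 11.5 ± 0.138 in Ago2KO, and 4.08 ± 0.354 CPM in T6B_MUT, 7.185 ± 0.879 in T6B_WT, 1.38 ± 0.351 in Trim71KO_empty and 7.15 ± 2.95 in Ago2KO_empty. Zic5 rose in Ago2KO (log2 fold change 0.69 ± 0.08, adjusted p = 4.32e-05), with T6B_WT (0.82 ± 0.24, adjusted p = 0.0389) and in Ago2KO_empty (0.81 ± 0.24, adjusted p = 0.0272), and it fell in Trim71KO_empty (−1.57 ± 0.29, adjusted p = 0.0018). The rise in Ago2KO_empty was 0.40 and not called (adjusted p = 0.0584) without replicate 2, and it was also lost without any 1 T6B_MUT library. That with T6B_WT was lost without each library other than T6B_WT replicate 2.

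Fgf5 (ENSMUSG00000029337, chr5:98254184-98277030, plus strand), a secreted growth factor that marks the postimplantation epiblast, was close to the limit of detection. Its counts were 3, 11 and 17 in W, 3, 3 and 15 in Trim71KO, 1, 0 and 3 in Ago2KO, 5, 7 and 2 in T6B_MUT, 5, 3 and 0 in T6B_WT, 5, 11 and 6 in Trim71KO_empty and 2, 3 and 0 in Ago2KO_empty. A count of 0 in a library allows up to 3 counts. No Ago2KO library was above 3 counts, a count also found in 1 library of W and 2 of Trim71KO. The fitted log2 fold change was −2.69 ± 0.90 (95% interval −4.62 to −0.77), which did not pass the test (adjusted p = 0.0518) and passed with unscaled library totals (adjusted p = 0.0497) or without W replicate 1 (adjusted p = 0.0133). In Trim71KO the value was −0.37 ± 0.64, and in Trim71KO against Ago2KO 2.33 ± 0.96 (adjusted p = 0.0773). In Experiment 2 Fgf5 was not tested.

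**Figure D2:**
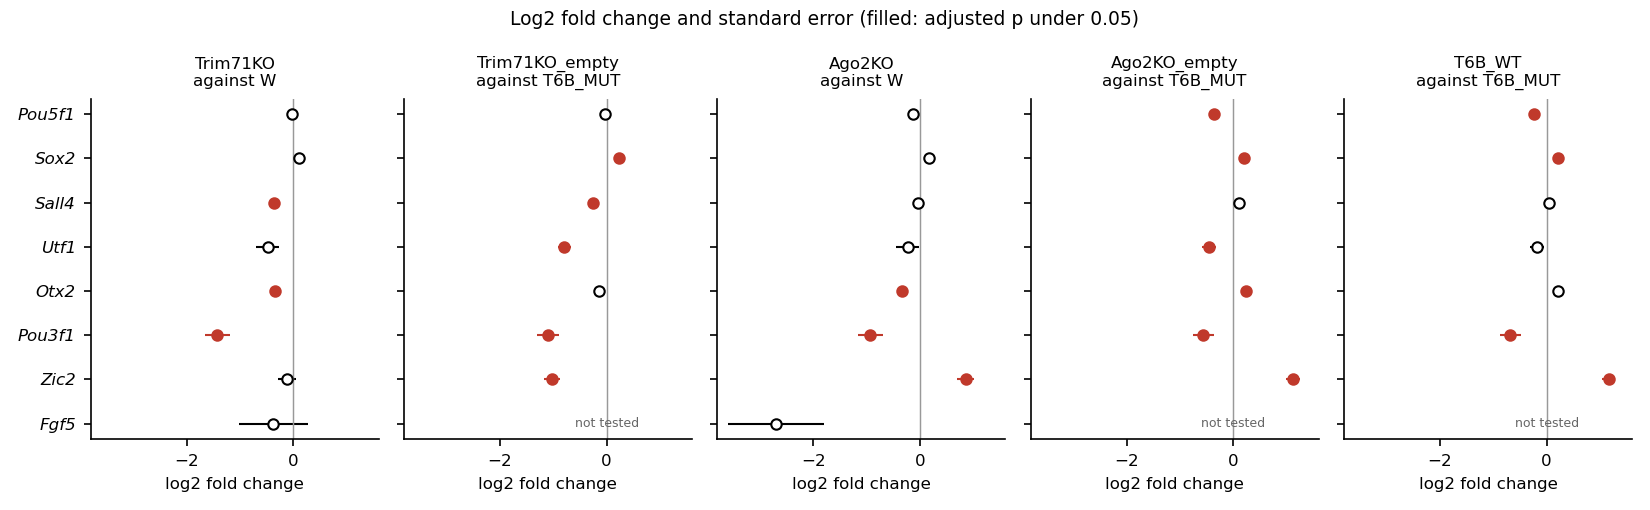
Log2 fold change (linear axis) of the 8 genes in the 5 comparisons with a control, with the standard error as a bar and filled points for adjusted p under 0.05. Pou3f1 lies left of 0 in each panel, Zic2 lies right of 0 in Ago2KO, Ago2KO_empty and T6B_WT and left of it in Trim71KO_empty, and Pou5f1 and Sox2 stay close to 0. Bars shorter than the symbol are hidden by it.

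Set against the naive state, most naive genes were higher in the Trim71-edited groups, while the called members other than Sox2 were lower. The median log2 fold change of the 8 genes was −0.35 in Trim71KO and −0.26 in Trim71KO_empty (7 tested), that of 18 naive genes was 0.48 and 0.36, and that of all genes tested was 0 in both. Of the 18 naive genes, 12 were called higher and 2 lower in Trim71KO, and 11 higher and 1 lower in Trim71KO_empty, where 16.9% and 15.6% of all genes tested, and 14.4% and 13.4%, were higher and lower. Nanog, a homeobox factor of naive cells, rose from 340 ± 5.48 to 546 ± 23.8 CPM (SD, n = 3) in Trim71KO, with a log2 fold change of 0.69 ± 0.05 (adjusted p = 5.78e-08), and by 0.62 ± 0.06 in Trim71KO_empty (adjusted p = 4.72e-07). Klf4 rose by 0.74 ± 0.10 and 0.53 ± 0.07 in the same 2 groups, Esrrb by 0.58 ± 0.05 and 0.30 ± 0.07, and Zfp42, also called Rex1, by 0.58 ± 0.05 and 0.67 ± 0.07. Tbx3 rose by 0.39 ± 0.07 and 0.54 ± 0.15, the second not called without Trim71KO_empty replicate 1 or T6B_MUT replicate 1 or 3. Tfcp2l1 rose by 0.68 ± 0.05 in Trim71KO and did not pass in Trim71KO_empty (0.43 ± 0.16). The exception with the largest change was Dppa3, which marks the preimplantation epiblast and germ cells and fell by −1.87 ± 0.44 in Trim71KO.

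In Ago2KO 6 of the 18 naive genes were called higher and 0 lower, where 10.2% and 7.78% of all genes were (median 0.15, against 0 for all genes tested). In Ago2KO_empty 5 were higher and 3 lower, where 16.4% and 12.4% were (0.12, against 0.03), and without its replicate 2 the counts were 4 and 2 (median 0). With T6B_WT 5 were higher and 2 lower, where 9.29% and 6.69% were (0, against 0.01). A difference in these counts between the Trim71-edited and the other groups was not tested. Nanog rose by 0.34 ± 0.05 in Ago2KO, 0.21 ± 0.06 in Ago2KO_empty and 0.22 ± 0.06 with T6B_WT. The second was 0.16 and not called (adjusted p = 0.0842) without Ago2KO_empty replicate 2 and was lost without any 1 T6B_MUT library, and the third was lost without each library other than T6B_WT replicate 1. Tfcp2l1 rose by 0.33 ± 0.05 in Ago2KO and did not pass in Ago2KO_empty (0.41 ± 0.16) or with T6B_WT (0.22 ± 0.16). Klf4, Esrrb, Zfp42 and Tbx3 passed the test in none of these 3 comparisons, with log2 fold changes between −0.06 and 0.41. The largest called change of the naive list in Ago2KO was a rise of Spp1 (0.59 ± 0.06, adjusted p = 9.9e-06). In Ago2KO_empty and with T6B_WT it was a rise of Fbxo15 (0.79 ± 0.08, adjusted p = 6.96e-07, and 0.56 ± 0.08, adjusted p = 5.01e-05). Spp1 and Fbxo15 were not followed under the alternatives or without single libraries. In Trim71KO against Ago2KO, 11 naive genes were called higher and 3 lower, where 17.1% and 17.1% of all genes were (median 0.30, against 0.01). In Trim71KO_empty against Ago2KO_empty, 9 were higher and 4 lower, where 14.7% and 16.9% were (0.19, against −0.02). Without Ago2KO_empty replicate 2 the latter counts were 10 and 3 (median 0.29). The 8 genes had medians of −0.16 and −0.36 in these direct comparisons with all libraries.

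**Figure D3:**
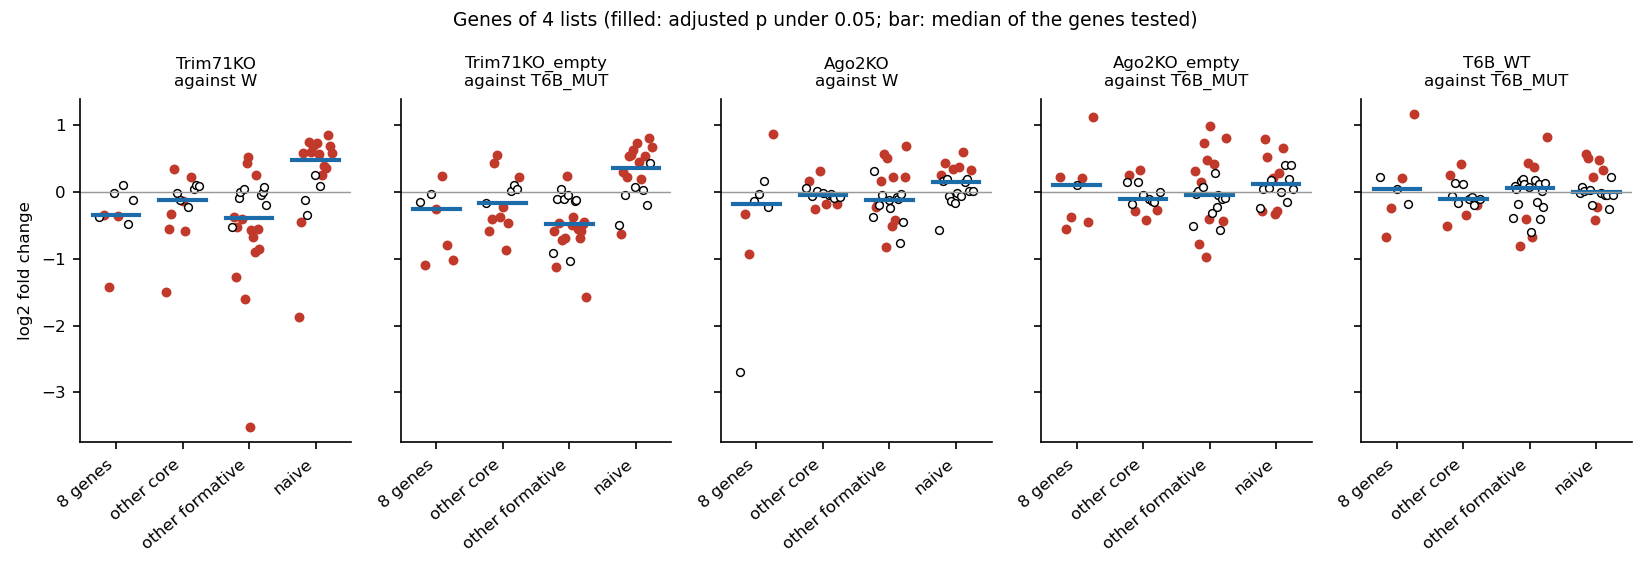
Log2 fold change (linear axis) of each gene tested in 4 lists, for the 5 comparisons with a control, with filled points for adjusted p under 0.05 and the list median as a bar. In the 2 Trim71 panels the naive median lies above 0 (0.48 and 0.36) and the other formative median below it (−0.39 and −0.48), and in the remaining panels all 4 medians lie between −0.18 and 0.15.

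Among other formative genes, more fell than rose in the Trim71-edited groups. Of 22 tested, 11 were called lower and 3 higher in Trim71KO (median −0.39), where 15.6% and 16.9% of all genes were lower and higher. In Trim71KO_empty 13 were lower and 1 higher (median −0.48), where 13.4% and 14.4% were. Lef1, a transcription factor of WNT signalling, fell by −3.51 ± 0.17 on the log2 scale in Trim71KO (adjusted p = 2.9e-09), the largest called change of this list, and it stood at −1.03 ± 0.38 in Trim71KO_empty, which did not pass (adjusted p = 0.0504). In Ago2KO the list split into 6 higher and 5 lower (median −0.12), where 10.2% and 7.78% of all genes were. In Ago2KO_empty it split into 7 higher and 4 lower (median −0.04), where 16.4% and 12.4% were, but into 4 higher and 7 lower (median −0.13) without replicate 2. With T6B_WT it split into 3 and 3 (median 0.06), where 9.29% and 6.69% were. Grhl2, a grainyhead factor that prepares epithelial enhancers of the formative epiblast, had the largest called change of the list in Ago2KO (−0.82 ± 0.06, adjusted p = 3.31e-07). Grhl2 was called lower in Trim71KO (−1.60) and Trim71KO_empty (−0.69) as well. It was also called lower in Ago2KO_empty (−0.97, or −1.02 without replicate 2) and with T6B_WT (−0.40). The call with T6B_WT was lost without T6B_MUT replicate 2. In Trim71KO against Ago2KO, 2 of the 22 were higher and 12 lower, where 17.1% and 17.1% of all genes were. The same counts were found in Trim71KO_empty against Ago2KO_empty, where 14.7% and 16.9% were, or 1 and 11 without Ago2KO_empty replicate 2.

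Other core genes were mixed in each comparison. Of 13, 2 were called higher and 5 lower in Trim71KO (median −0.12), 3 and 6 in Trim71KO_empty (−0.17), 2 and 3 in Ago2KO (−0.05), 2 and 3 in Ago2KO_empty (−0.11) and 2 and 3 with T6B_WT (−0.11). The shares of all genes called in these comparisons are those given for the formative list. In Trim71KO against Ago2KO 5 were higher and 6 lower, as in Trim71KO_empty against Ago2KO_empty. Without Ago2KO_empty replicate 2 the counts were again 2 and 3 in Ago2KO_empty against T6B_MUT. In Trim71KO_empty against Ago2KO_empty they were then 4 higher and 6 lower. Dnmt3l, a cofactor of de novo DNA methylation, fell by −1.5 ± 0.04 in Trim71KO (adjusted p = 2.39e-11) and did not pass in Trim71KO_empty (−0.17 ± 0.07, adjusted p = 0.0546). With T6B_WT it fell by −0.51 ± 0.07 (adjusted p = 2.86e-05). Lin28a, an RNA-binding protein that blocks the maturation of let-7, fell by −0.87 ± 0.08 in Trim71KO_empty (adjusted p = 3.47e-07) and −0.42 ± 0.08 in Ago2KO_empty (adjusted p = 0.00102, or −0.44 with adjusted p = 0.00159 without replicate 2). Lin28a was called lower in Trim71KO (−0.58), with T6B_WT (−0.35) and in Ago2KO (−0.18) as well. The call in Ago2KO was lost without W replicate 2 or 3.

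Markers of other cell states moved across the same groups. The sum of 9 primitive endoderm markers was 53.4 to 54.2 CPM in W (8 of 9 above 1 CPM), 7.33 to 8.32 CPM in Trim71KO (4 of 9) and 13.8 to 15.7 CPM in Ago2KO (7 of 9). In Experiment 2 it was 32.3 to 32.7 CPM in T6B_MUT (7 of 9), 25.9 to 29.3 CPM in T6B_WT (6 of 9), 11.2 to 13.3 CPM in Trim71KO_empty (4 of 9) and 19.5 to 29.0 CPM in Ago2KO_empty (7 of 9). It was thus lowest where Pou3f1 was lowest in each experiment. The sum of 7 markers of 2-cell-like cells was 11.6 to 13.2 CPM in W (3 of 7), 0.778 to 1.39 CPM in Trim71KO (0 of 7), 2.64 to 3.11 CPM in Ago2KO (0 of 7), 15.6 to 16.8 CPM in T6B_MUT (3 of 7), 74.4 to 76.6 CPM in T6B_WT (6 of 7), 16.4 to 17.3 CPM in Trim71KO_empty (3 of 7) and 53.4 to 64.9 CPM in Ago2KO_empty (5 of 7). Otx2 was also lower than its control in Trim71KO and Ago2KO and higher in the T6B_WT and Ago2KO_empty libraries, but the Trim71KO_empty libraries had the lowest Otx2 of Experiment 2 and a sum no lower than that of T6B_MUT. No marker of either list was at 0 in every library of a group.

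The 5 of 6 trophectoderm markers in the table, 1 of them above 1 CPM, summed to 23.7 to 26.6 CPM in W, 16.5 to 18.6 in Trim71KO and 33.0 to 37.1 in Ago2KO, and to 16.9 to 17.4 CPM in T6B_MUT, 22.1 to 22.2 in T6B_WT, 10.4 to 11.5 in Trim71KO_empty and 21.4 to 23.0 in Ago2KO_empty. The groups with higher or lower Zic2 than their control were higher or lower in this sum too, and Trim71KO was below W in it with no call of Zic2. Tfap2c was the only marker of this list called in Ago2KO (0.50 ± 0.07), Ago2KO_empty (0.37 ± 0.07) and T6B_WT (0.35 ± 0.07). Neural markers (4 of 6 in the table, 3 above 1 CPM, or 4 in Ago2KO) summed to 106 to 120 CPM in W, 128 to 155 in Trim71KO, 134 to 148 in Ago2KO, 96.0 to 103 in T6B_MUT, 117 to 128 in T6B_WT, 84.2 to 102 in Trim71KO_empty and 94.8 to 105 in Ago2KO_empty. Against the higher sum in Trim71KO, where 2 markers were called higher, Pax6 fell there by −1.51 ± 0.37 (adjusted p = 0.0056). It fell by −1.74 ± 0.37 in Trim71KO_empty (adjusted p = 0.00174). Primitive streak markers (5 of 7 in the table, 1 above 1 CPM) summed to 4.26 to 7.63 CPM over all libraries. Fibroblast markers (3 in the table, 1 above 1 CPM, or 2 in Ago2KO) summed to 7.15 to 7.68 CPM in W, 10.5 to 11.6 in Trim71KO, 7.20 to 7.82 in Ago2KO, 4.04 to 4.68 in T6B_MUT, 2.73 to 3.43 in T6B_WT, 8.79 to 9.38 in Trim71KO_empty and 4.36 to 5.26 in Ago2KO_empty, so both Trim71-edited groups lay wholly above their control. Thy1 was the only marker of this list called higher there, by 0.68 ± 0.09 in Trim71KO and 1.21 ± 0.11 in Trim71KO_empty. The other marker tested in Trim71KO was called lower. The part of any of these marker lists in the results was not tested.

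The effect of the same label was compared between the experiments, which share no library. The change in Zic2 with Trim71 editing differed by 0.90 ± 0.23 on the log2 scale between Experiment 1 and Experiment 2 (95% interval 0.41 to 1.38, adjusted p = 0.0136). It was the only 1 of the 8 genes called, where 10.1% of 22258 genes were, and the call was lost without W replicate 1 (0.73, adjusted p = 0.0502), Trim71KO replicate 3 (0.67, adjusted p = 0.057) or Trim71KO_empty replicate 1 (0.82, adjusted p = 0.0527). For Ago2 editing only Otx2 was called, where 2.13% of all genes were, with a difference of −0.55 ± 0.10 (95% interval −0.76 to −0.35, adjusted p = 0.00181) that was kept under every alternative and without each library and was −0.57 (adjusted p = 0.00232) without replicate 2 of Ago2KO_empty. Without composition scaling, the calls over the whole table in this contrast split into 401 higher and 269 lower, in place of 149 and 324. The difference for Pou5f1 was 0.26 ± 0.11 (adjusted p = 0.261) and passed only without Ago2KO_empty replicate 3 (0.37, adjusted p = 0.0179), where the count of called genes over the whole table rose from 473 to 1634. For Sall4 the 2 experiments differed by −0.09 ± 0.09 with Trim71 editing (95% interval −0.28 to 0.09) and for Pou3f1 by −0.33 ± 0.34 (−1.05 to 0.39). Plasmid transfection and experiment differ together with these contrasts and cannot be told apart.

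**Figure D4:**
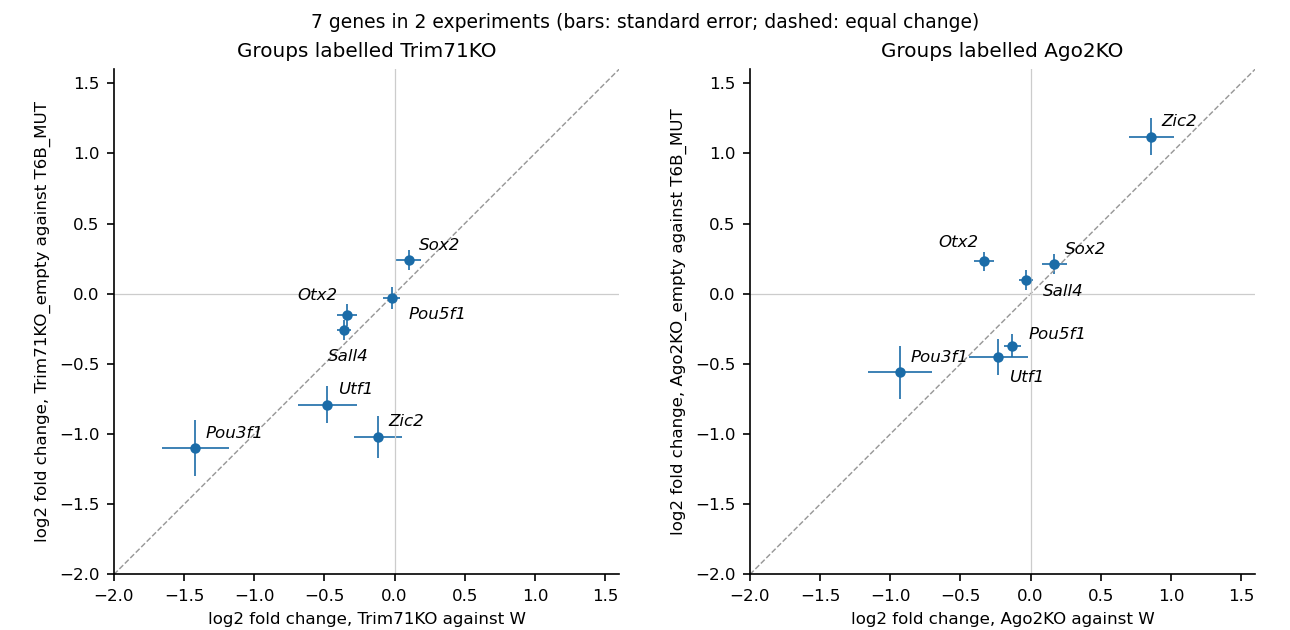
Log2 fold change of 7 genes in Experiment 1 (horizontal axis) against Experiment 2 (vertical axis) for the groups labelled Trim71KO (left) and Ago2KO (right), with standard errors as bars and the line of equal change dashed. Zic2 lies below the line in the left panel (−0.12 and −1.02), and Otx2 lies above it in the right panel (−0.33 and 0.23).

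As a description of how the 8 genes vary together, Pearson's r of log2(CPM + 0.5), centred within each experiment, was computed over the 21 libraries, which share groups and parental line. Single libraries also moved many of these genes at once. W replicate 1 was the lowest of W for each of the 8 genes but Otx2, for which it was highest. Trim71KO replicate 3 was the highest of its group for each but Otx2, for which it was lowest. The part of such libraries in r was not tested. Among the 8 genes, r was highest for Utf1 with Pou3f1 (0.79), Sall4 with Zic2 (0.74) and Sall4 with Utf1 (0.72), and lowest for Pou5f1 with Zic2 (−0.66). Sox2 had no r beyond −0.21 to 0.27 with any other of the 8. The genes most like Zic2 over the table were Dpysl3 and Gne (both 0.96), those most like Pou3f1 were A430005L14Rik (0.92) and Mrpl52 (0.90), and those most like Sall4 were 1700017B05Rik and Egr1 (both 0.95). Utf1 was most like Znrd2 and Endog (both 0.95), and Pou5f1 most like Gm20538 and Psmb3 (both 0.95). The genes most like Otx2 were Zscan4-ps2 (0.87) and Zscan4f (0.86), of the Zscan4 family of near-identical copies that marks 2-cell-like cells. Values for Sox2 (Csrnp2, 0.81, and Upf3a, 0.78) and Fgf5 (Rbm15b, 0.81, and Noa1, 0.80) were lower, and those of Fgf5 rest on few counts. Between 0.148% and 8.39% of the candidate genes had an r over 0.7 with a given gene.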

How the data were processed

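The members and gene lists were chosen with earlier results of these data known. The authors deposited 1 table of raw read counts and RPKM values per library, per the file headers, which also name QuasR for the gene length. The submitters' processing notes name bcl2fastq 2.17, STAR 2.7.3a and GRCm38. The annotation, the gene filter and the use of strand in counting are not given in the sources used here, so genes that overlap another gene are uncertain. Deposited counts were whole numbers, totalling 29561125 to 57872324 per library. Deposited RPKM served only for levels between genes.

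Counts were tested with edgeR 4.0.16 in R 4.3.3 (quasi-likelihood, robust, TMM within each fit, filterByExpr with a minimum count of 10). Experiment 1 (9 libraries), Experiment 2 (12) and, for differences between experiments, all 21 libraries were fitted apart. P-values were adjusted (Benjamini-Hochberg) over 21210, 21505 and 22258 genes and called under 0.05. CPM use TMM-scaled totals, with TMM factors of 0.956 to 1.03. The script was tested on simulated data. Replicates differed beyond sampling noise in all 21 pairs (chi-square per degree of freedom 3.59 to 80.7). Coordinates and 3′ UTRs are from GENCODE M21 (GRCm38), 1-based. Named genes were the 8 members, 6 naive genes, the targeted genes, and the 2 genes most alike each member whose mean log2 CPM reached 2. Of the called genes with the largest change in each list and comparison, only some are named. Sox2ot and Zic5, which overlap or adjoin a member, and seed families other than miR-290 and miR-302 were added after values were seen. Alternatives were RLE scaling, unscaled totals, no filter, CPM over 1 in 3 libraries, DESeq2 1.42.0, only the groups compared, a replicate block, and leaving out each library.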

Additional observations from a re-analysis of the deposited data

Results flagged for a closer look

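The effect of a label differed between the experiments for Zic2, Zic5, Esrrb, Lef1, Dnmt3l, Grhl2, Otx2 and Zscan4f, of which only Zic2 and Otx2 are members. This was by a test of the difference itself (edgeR, all 21 libraries, Experiment 1 minus Experiment 2). Of 22258 genes tested, 10.1% were called with Trim71 editing and 2.13% with Ago2 editing. With Trim71 editing Zic2 differed by 0.90 ± 0.23 on the log2 scale (adjusted p = 0.0136), being at −0.12 in Trim71KO against W and −1.02 in Trim71KO_empty against T6B_MUT. Its neighbour Zic5 differed by 1.38 ± 0.29 in the same contrast (adjusted p = 0.0037), with −0.19 and −1.57. Esrrb differed by 0.28 ± 0.09 (adjusted p = 0.0354), with 0.58 and 0.30, and this call was lost without 9 of the 12 libraries left out in turn. Lef1 differed by −2.48 ± 0.44 (adjusted p = 0.000452), Dnmt3l by −1.33 ± 0.08 (adjusted p = 4.71e-11) and Grhl2 by −0.91 ± 0.12 (adjusted p = 8.76e-06), each lower in Experiment 1. With Ago2 editing Otx2 differed by −0.55 ± 0.10 (adjusted p = 0.00181), with −0.33 in Ago2KO and 0.23 in the libraries labelled Ago2KO_empty. Zscan4f, of a family of near-identical copies, differed by −3.63 ± 0.20 with Trim71 editing (adjusted p = 1.43e-11), with −3.70 and −0.07, and by −3.86 ± 0.16 with Ago2 editing (adjusted p = 1.07e-14), with −1.98 and 1.88. With Ago2 editing Lef1 differed by −1.21 ± 0.29 (adjusted p = 0.0215), which was lost without Ago2KO_empty replicate 2 (−0.95, adjusted p = 0.0989), T6B_MUT replicate 1 or 2, or Ago2KO replicate 3. No cause of these differences was tested.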

How the results depend on the processing

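Of the alternative fold changes of the 8 genes, 875 kept direction and side of the threshold, 53 lost the call, 18 gained one and 26 turned sign, all 26 on values that passed no test. Of the alternative counts of calls among the 8 genes, 112 were within 1.5 times the reported count and 17 were not. The count of the 8 genes called with T6B_WT fell from 4 to 2 under RLE scaling and to 2 with unscaled totals, and it was 6 with only the groups compared. Leaving Ago2KO_empty replicate 2 out of the list counts was chosen after seeing the data, and it turned the other formative genes called in Ago2KO_empty from 7 higher and 4 lower to 4 higher and 7 lower. Leaving out each library in turn, the counts ranged from 3 to 4 in Trim71KO, 2 to 4 in Ago2KO, 2 to 4 in Trim71KO against Ago2KO, 1 to 2 with T6B_WT, 4 to 5 in Trim71KO_empty, 2 to 4 in Ago2KO_empty, 4 to 6 in Trim71KO_empty against Ago2KO_empty, 0 to 1 for the Trim71 difference and 1 to 2 for the Ago2 difference. Over the whole table, calls with T6B_WT went from 3437 to 5632 with only the groups compared and to 2045 without T6B_MUT replicate 1, those in Ago2KO_empty from 6201 to 3894 without T6B_MUT replicate 1 and to 3923 without Ago2KO_empty replicate 1, and those of the Ago2 difference from 473 to between 269 and 1634 on leaving out a library. The sign turned, over left-out libraries, in Trim71KO for Pou5f1 (−0.09 to 0.02), Sox2 (−0.02 to 0.18), Fgf5 (−1.42 to 0.18) and Zic2 (−0.34 to 0.00), in Trim71KO against Ago2KO for Sox2 (−0.19 to 0.01) and Otx2 (−0.05 to 0.05), in Ago2KO_empty for Sall4 (−0.02 to 0.14), in Trim71KO_empty against Ago2KO_empty for Sox2 (−0.02 to 0.08), and in the differences for Pou5f1 with Trim71 (−0.08 to 0.05) and Sox2 with Ago2 (−0.09 to 0.04). It also turned with unscaled totals for Sall4 in Ago2KO (0.01), Pou5f1 in the Trim71 difference (0.04, and 0.00 with no filter or with the replicate block) and Sox2 in the Ago2 difference (0.04). The cause was not tested. The correlation of same-numbered deviations from the group mean ran from −0.17 to 0.18 in Experiment 1 and −0.15 to 0.16 in Experiment 2. Libraries with different numbers were not compared this way, so the check cannot decide whether replicate numbers pair the samples. With the replicate block the 8 genes had 4 calls in Ago2KO (Fgf5 added, adjusted p = 0.012), 3 in Trim71KO against Ago2KO (Fgf5 added, adjusted p = 0.0234), 3 with T6B_WT (Pou5f1 lost, adjusted p = 0.0637) and 5 in Trim71KO_empty against Ago2KO_empty (Pou3f1 added, adjusted p = 0.0489), and the other counts were as before. Depth limits Fgf5, with 0 to 17 counts a library.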
